A study of Mus musculus with 8 samples.

Results

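The mitochondrial ribosomal protein genes were taken as every gene of the deposited count table whose symbol is Mrpl or Mrps followed by a number and at most 1 letter, with symbols marked as pseudogenes (-ps) left out. The rule found 77 genes of the 32499 in the table, 48 with Mrpl symbols and 29 with Mrps symbols, and 76 of them passed the filter on low counts that left 12970 tested genes. The gene that did not pass was Mrpl53, which had 0 or 1 count in every library. RNA was sequenced from 8 libraries of C57BL/6 mouse pre-B cells derived from Arf-/- bone marrow, a genotype that all groups share. The cells carried an empty lentiviral vector (EV), HA-tagged full-length ZNF384, the HA-tagged fusion TAF15-ZNF384 or the HA-tagged fusion TCF3-ZNF384, in 4 groups of 2 libraries, and total RNA was taken from cells sorted for GFP. ZNF384 is a zinc finger transcription factor, and fusions that join it to partners such as TAF15 or TCF3 occur in B-cell precursor acute leukaemia. The series design calls the replicates biological, and p-values here measure only the spread between these libraries.

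The mitochondrial ribosome (mitoribosome) translates the few membrane proteins of the respiratory chain that mitochondrial DNA encodes. Its RNAs come from mitochondrial DNA, but all its proteins are encoded in the nucleus, made in the cytosol and imported, so that a large set of nuclear genes supplies the particle. Some of these proteins descend from those of the bacterial ribosome and the others were added in the mitochondrial lineage, and the particle is divided into a large subunit that forms peptide bonds and a small subunit that reads the messenger RNA.

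Libraries held 9381954 to 41483660 counts, and 5 abundant non-coding genes took 10.9% to 33.2% of them. Both quantities differed between groups. The non-coding share was lowest for ZNF384 (10.9% and 12.5%), followed by TCF3-ZNF384 (18.5% and 24.5%). It was larger for TAF15-ZNF384 (28.1% and 29.6%) and EV (27.2% and 33.2%). Depth was 28469291 and 29072409 counts for EV, against 41483660 and 20298726 for ZNF384. Most fusion libraries were shallower, at 9583008 and 17876711 counts for TCF3-ZNF384, against 9381954 and 9963494 for TAF15-ZNF384. The transduced gene is read through its mouse counterpart Zfp384, which lay at 24 and 21.6 CPM (counts scaled to the TMM-adjusted library size) in EV, 51.1 and 90.2 CPM with ZNF384, 185 and 162 CPM with TAF15-ZNF384 and 511 and 450.2 CPM with TCF3-ZNF384, so the transduced groups were above EV as labelled. The deposited counts do not tell the transduced copies from the endogenous gene. The summed level of 9 pre-B cell markers was 5635 to 6369 CPM, against at most 3.91 CPM for each list of T, NK, myeloid, erythroid or stromal markers. The 13 rows for genes on mitochondrial DNA summed to 0 counts, so the mitoribosome's own RNAs and its products were not measured.

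Of the 77 genes, 50 encode proteins of the large subunit and 26 proteins of the small subunit. These counts follow the structures rather than the symbols, since the products of Mrps30 and Mrps18a sit in the large subunit. The remaining gene, Mrps36, encodes a part of the ketoglutarate dehydrogenase complex and was kept because the rule names it. The genes lay on 17 chromosomes of mm9, with at most 10 on 1 chromosome, so they do not form a cluster. The exons of 26 overlapped those of another gene, on the same strand for 6 and on the opposite strand for 22. Where the exons overlap, reads can belong to either gene, and the strand setting of the counting is not given in the sources used here. Mrpl53 is such a gene, with 87.1% of its exon bases inside Ccdc142 on the same strand.

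Promoters are shown for 5 members that the results below turn on. They are Mrpl32, Mrps26 and Mrps15, which were lower with TCF3-ZNF384, Mrpl34, which was higher with full-length ZNF384, and Mrpl14, the member that was higher with TCF3-ZNF384. Each line gives the 150 bases before the annotated start, 5′ to 3′ on the gene's strand, from RefSeq on GRCm38.p6, a later build than the mm9 of the counts. They lie at chr13:14613038-14613187 (minus strand), chr2:130563607-130563756 (plus strand), chr4:126046778-126046927 (plus strand), chr8:71464776-71464925 (plus strand) and chr17:45686199-45686348 (plus strand). In Mrpl32 capitals mark GCATGCGC, letters of the NRF1 motif, or their reverse complement GCGCATGC, which overlap in the first stretch, and in Mrps26 they mark ACTTCCGG, the reverse complement of the ETS family letters CCGGAAGT, and ATTGG, the reverse complement of the NF-Y letters CCAAT.
Mrpl32: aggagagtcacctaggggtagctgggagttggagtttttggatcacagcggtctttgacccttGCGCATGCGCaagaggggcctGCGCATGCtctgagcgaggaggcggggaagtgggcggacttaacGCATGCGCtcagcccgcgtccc
Mrps26: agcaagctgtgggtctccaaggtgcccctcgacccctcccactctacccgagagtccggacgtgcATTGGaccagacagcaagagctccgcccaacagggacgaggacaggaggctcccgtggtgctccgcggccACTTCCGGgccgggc
Mrps15: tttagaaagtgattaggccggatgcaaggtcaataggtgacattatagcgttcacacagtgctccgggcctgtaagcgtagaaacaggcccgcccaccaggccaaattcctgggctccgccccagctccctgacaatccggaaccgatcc
Mrpl34: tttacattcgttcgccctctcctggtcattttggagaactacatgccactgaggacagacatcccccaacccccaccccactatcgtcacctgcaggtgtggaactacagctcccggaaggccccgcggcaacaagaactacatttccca
Mrpl14: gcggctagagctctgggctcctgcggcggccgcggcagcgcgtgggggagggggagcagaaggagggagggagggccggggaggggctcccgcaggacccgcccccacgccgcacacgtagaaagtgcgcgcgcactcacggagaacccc

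NRF1 and ETS family factors are known to act at many promoters of nuclear genes for mitochondrial proteins. A RefSeq promoter (250 bases before to 50 bases after the start) was matched for 68 of the 77 genes. On either strand, the NRF1 letters GCATGCGC were in 8 of these 68 promoters (11.8%), against 5.77% of the promoters of tested genes and 2.8% of all promoters in the table. The ETS letters CCGGAAGT were in 11 (16.2%), against 8.98% and 4%. The YY1 letters AAGATGGC were in 12 (17.6%), against 5.09% and 2.88%. The NRF1 and YY1 letters were shortened after longer forms had been counted, so their shares are a description only. Of 20 matched promoters of members lower with TCF3-ZNF384 against EV, 2 (10%) held the NRF1, 4 (20%) the ETS and 5 (25%) the YY1 letters. Mrpl32 held the NRF1 letters at 3 places between 87 and 15 bases before its start. The E-box CACGTG (7.35% of the 68 promoters, 10.3% of tested genes) and the NF-Y letters CCAAT (39.7% and 39.1%) were no more frequent by over a percentage point than among tested genes. The A-runs GAAAAA or CAAAAA are an approximation of the letters ZNF384 is known to bind. They were in 23 of the 68 (33.8%), against 24.7% of tested genes and 32.5% of all promoters. Of the 20 promoters of members lower with TCF3-ZNF384 against EV, 9 (45%) held the A-runs. In the same 20 promoters, 1 (5%) held the E-box and 6 (30%) the NF-Y letters. Differences between these shares were not tested. These are matches of letters, not binding sites, and matches of 2 motifs may overlap, as where a CCAAT and an ATTGG share bases.

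Levels per length, in CPM per kilobase of the longest protein-coding transcript, ran from 1.35 to 154 among the tested members. The highest mean over the 8 libraries was 154 for Mrpl54, followed by 125 for Mrpl36, 121 for Mrpl9 and 117 for Mrpl34, all of the large subunit. The lowest were Mrpl48 at 2.95, Mrps34 at 1.39 and Mrps6 at 1.35. The ranges over libraries of the 4 highest members overlapped one another, so their order is not fixed. With the length of all exons in place of the longest transcript, Mrpl54 ranked 3 and Mrpl36 ranked 1. Mrps6, a relative of bacterial S6, had 4 to 59 counts per library and shares 43.8% of its exon bases with Slc5a3 on the same strand. Mrps34 shares 37.0% with Nme3 on the same strand and 63.4% with Mapk8ip3 on the opposite strand, and Mrpl48 shares 30.4% with D630004N19Rik on the same strand, so the levels of all 3 are uncertain.

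**Figure D1:**
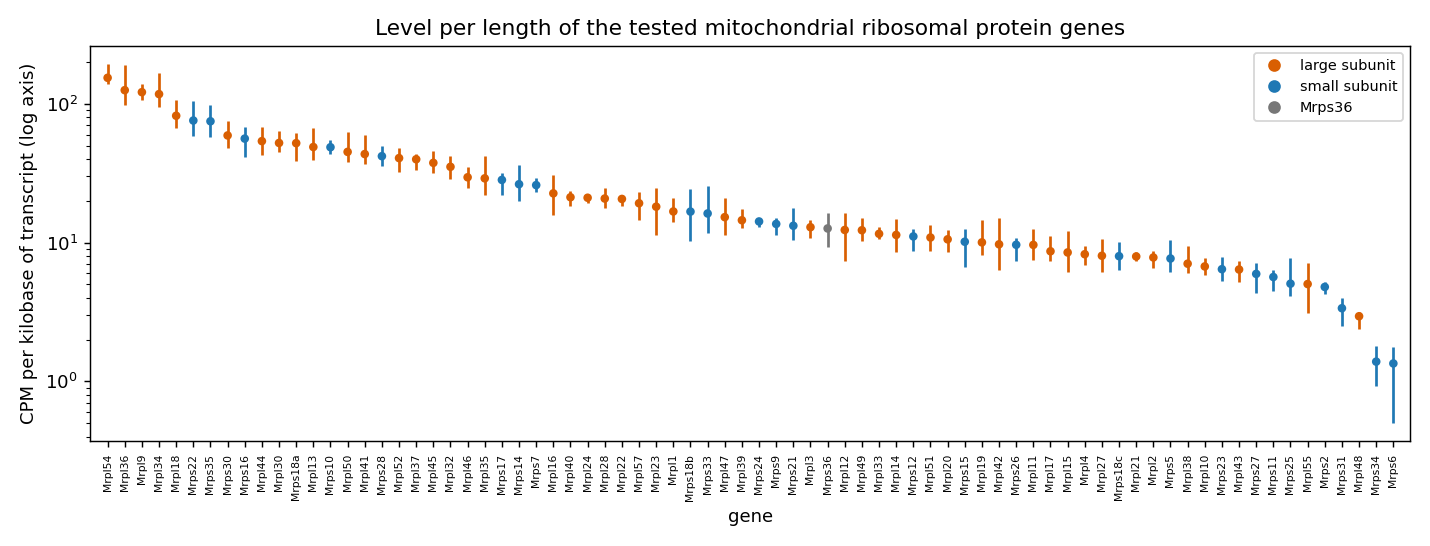
Level per length of the 76 tested mitochondrial ribosomal protein genes, in CPM per kilobase of transcript on a log axis; points are means over the 8 libraries, lines run from the lowest to the highest library, and colours give the subunit. Mrpl54 (154) stands at the high end and Mrps34 (1.39) and Mrps6 (1.35) at the low end. The highest members are of the large subunit, and members of both subunits lie lower in the range.

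Summed over the 77 genes, the normalised counts were 3027 and 2877 CPM in EV, 3436 and 2906 CPM with ZNF384, 2506 and 2643 CPM with TAF15-ZNF384 and 2519 and 2439 CPM with TCF3-ZNF384. On this scale all 4 fusion libraries lay below both EV libraries, and the second ZNF384 library lay between the EV libraries. As a share of each library's total counts, the same genes took 0.272% and 0.245% in EV and 0.361% and 0.328% in ZNF384. The TAF15-ZNF384 libraries gave 0.246% and 0.251%, and those of TCF3-ZNF384 gave 0.286% and 0.253%. By that share no fusion library lay below both EV libraries, and both ZNF384 libraries lay above them. Large subunit genes gave 1796 to 2526 CPM of these sums and small subunit genes 635 to 899 CPM. In bulk libraries fewer cells of a type and less RNA per cell cannot be told apart. Over the 4 groups, TCF3-ZNF384 held the lowest group mean on the TMM scale for 45 of the 76 tested members and TAF15-ZNF384 for 21, and ZNF384 held the highest for 46. The same counts were not made over all tested genes, so they do not show whether the members differ from other genes.

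**Figure D2:**
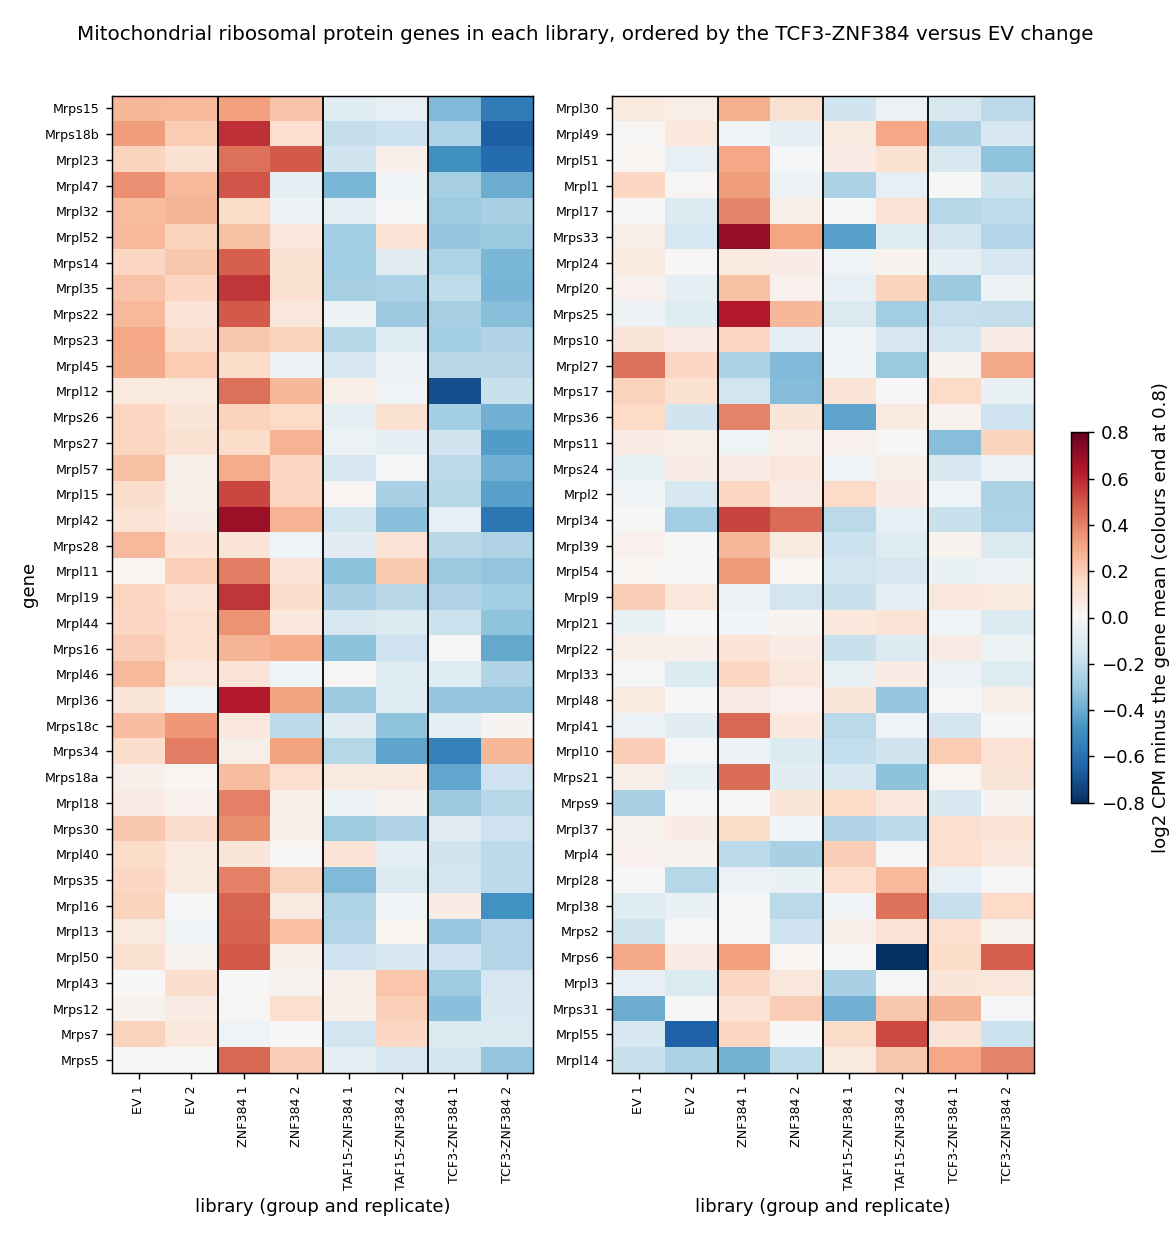
Heat map of the 76 tested mitochondrial ribosomal protein genes (rows) in the 8 libraries (columns), coloured by log2 CPM minus the gene's mean over libraries, with genes in the order of their TCF3-ZNF384 versus EV change from the lowest (Mrps15) to the highest (Mrpl14). The first ZNF384 library is the reddest column (median 0.23 above the gene means) and both TCF3-ZNF384 libraries are mostly blue (medians −0.15 and −0.18).

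In TCF3-ZNF384 against EV, more members were lower than higher on the TMM scale. Of 76 members, 23 fell and 1 rose (edgeR's quasi-likelihood test, Benjamini-Hochberg adjusted p under 0.05 over all tested genes), where 17% of all tested genes were called lower and 16.2% higher (33.3% in either direction). The median log2 fold change of the members was −0.24, against 0.01 for all tested genes. Both TCF3-ZNF384 libraries lay below both EV libraries for 46 members and above them for 5, against 35.2% and 35.8% of tested genes. Of the large subunit genes 14 of 49 fell (median −0.23), and of the small subunit genes 9 of 26 (median −0.25). Scaled by total counts instead, the median of the members turns to 0.07 while that of all tested genes moves to 0.32, and the calls turn to 8 higher and 1 lower. The members' median minus that of all genes is then −0.25, and the changes below are relative to the bulk of genes. The 24 calls became 6 without the second TCF3-ZNF384 library, 7 without the first EV library, 15 without the second EV library and 15 without the first TCF3-ZNF384 library, while the median stayed between −0.25 and −0.20.

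**Figure D3:**
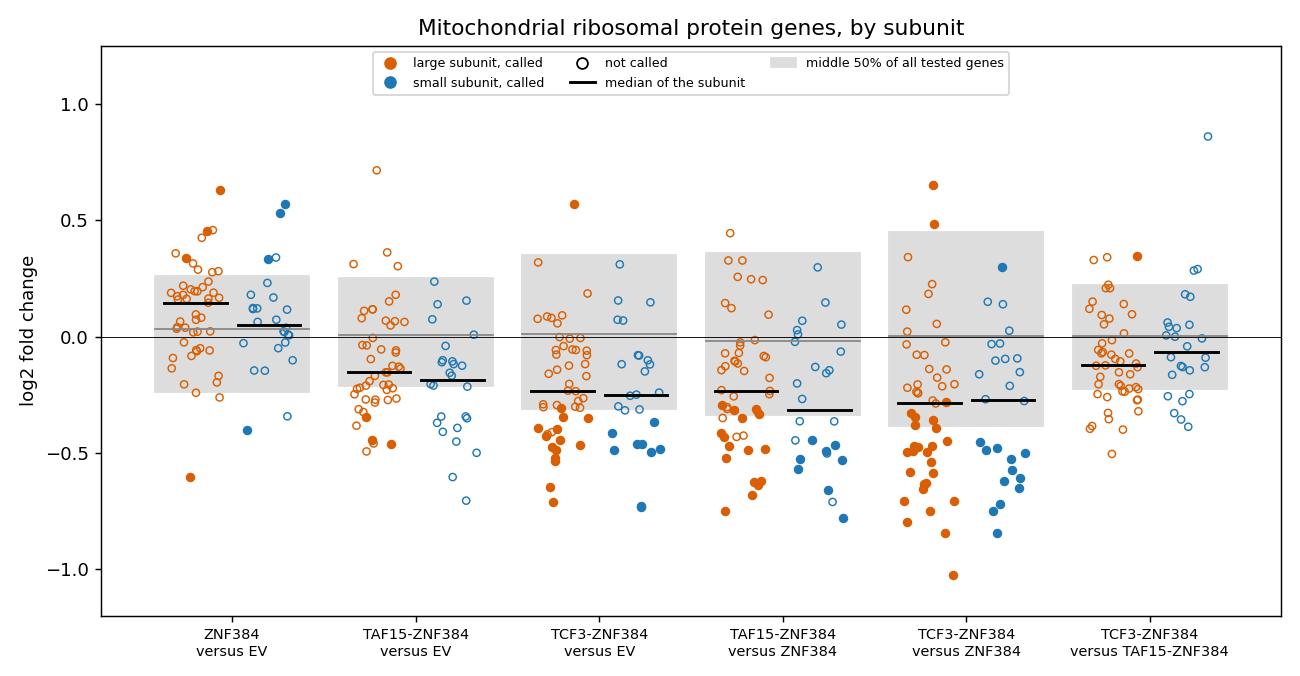
Log2 fold changes of the tested mitochondrial ribosomal protein genes in the 6 comparisons, with large subunit genes in orange and small subunit genes in blue; filled points passed adjusted p under 0.05, black bars are subunit medians, and grey boxes and lines give the middle 50% and the median of all tested genes. In TCF3-ZNF384 versus EV the bars lie at −0.23 and −0.25 (the median of all members turns to 0.07 when scaled by total counts, where all tested genes lie at 0.32), and in TCF3-ZNF384 versus TAF15-ZNF384 a single point is filled.

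Mrps15 (uS15 in the family nomenclature, a small subunit protein with a bacterial relative) lies at chr4:125724169-125732776 of mm9. It measured 11.2 and 11.1 CPM in EV and 7.27 and 6.30 CPM with TCF3-ZNF384. The TAF15-ZNF384 libraries, at 8.70 and 8.89 CPM, lay between those groups, and the ZNF384 libraries, at 11.7 and 10.9 CPM, spanned the EV values. Its log2 fold change with TCF3-ZNF384 was −0.73 ± 0.15 (SE, n = 2 per group, edgeR adjusted p = 0.00209). Mrpl32 (bL32), a large subunit protein that the inner membrane protease m-AAA matures, is at chr13:14702568-14705304. Its promoter is the one shown above with the NRF1 letters. It measured 31.9 and 32.3 CPM in EV, 29.6 and 26.0 CPM with ZNF384, 25.3 and 26.4 CPM with TAF15-ZNF384 and 22.0 and 22.3 CPM with TCF3-ZNF384. The TCF3-ZNF384 libraries were the lowest of all, and the gene fell by 0.53 ± 0.11 on the log2 scale against EV (edgeR adjusted p = 0.00199). Mrpl45 (chr11:97177030-97191234), a large subunit protein specific to mitochondria that anchors the ribosome to the inner membrane, measured 112 and 104 CPM in EV and 77.7 CPM in both TCF3-ZNF384 libraries. Its log2 fold change was −0.48 ± 0.10 (edgeR adjusted p = 0.00249). Of the 23 genes that fell, 4 kept the call whichever of the 8 libraries was left out, and they were Mrps15, Mrpl32, Mrpl45 and Mrpl23.

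Mrpl23 (uL23, a large subunit protein at the exit tunnel; chr7:149718704-149726652) measured 13.7 and 13.2 CPM in EV and 8.65 and 7.91 CPM with TCF3-ZNF384, a change of −0.71 ± 0.14 (edgeR adjusted p = 0.0014). This value is uncertain, because the copy annotated as the pseudogene Mrpl23-ps1 carried 3.72 to 4.94 times as many counts as Mrpl23 in each library and itself fell by 0.53 ± 0.12 (edgeR adjusted p = 0.00415). How the counting divided reads between both copies is not given in the sources used here.

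The other genes with the smallest adjusted p in this comparison belonged to both subunits. Mrps18b (chr17:36047324-36053334), one of 3 mitochondrial relatives of bacterial S18, measured 22.1 and 20.2 CPM in EV and 14.7 and 11.1 CPM with TCF3-ZNF384 (−0.73 ± 0.17, edgeR adjusted p = 0.00414). The groups did not overlap, but the ZNF384 libraries, at 26.2 and 19.2 CPM, lay on both sides of EV. Mrps26, specific to mitochondria, measured 45.9 and 43.7 CPM in EV and 33.9 and 31.3 CPM with TCF3-ZNF384 (−0.46 ± 0.11, edgeR adjusted p = 0.00414). Mrps14 (uS14) measured 87.0 and 90.1 CPM against 65.5 and 60.1 CPM (−0.50 ± 0.12, edgeR adjusted p = 0.00646). Mrpl57, a large subunit protein specific to mitochondria, measured 51.9 and 45.3 CPM against 37.9 and 33.8 CPM (−0.44 ± 0.11, edgeR adjusted p = 0.00762). In each of these genes both TCF3-ZNF384 libraries were below both EV libraries. Without the second TCF3-ZNF384 library all 4 missed the threshold, with adjusted p of 0.0906 for Mrps18b, 0.0655 for Mrps26, 0.0828 for Mrps14 and 0.109 for Mrpl57, and Mrpl57 also missed it without the first EV library. The remaining 15 members that fell were Mrpl12, Mrpl15, Mrpl19, Mrpl35, Mrpl36, Mrpl44, Mrpl46, Mrpl47, Mrpl52, Mrps16, Mrps18a, Mrps22, Mrps23, Mrps27 and Mrps28. Their log2 changes ran from −0.65 for Mrpl47 (uL29) to −0.31 for Mrps18a, and each call was lost on leaving out any of 2 or more single libraries.

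Mrpl14 (uL14, a large subunit protein at the face that meets the small subunit; chr17:45823271-45835444) was the member that rose. It measured 6.37 and 6.05 CPM in EV, 5.55 and 6.25 CPM with ZNF384, 7.61 and 8.36 CPM with TAF15-ZNF384 and 8.93 and 9.48 CPM with TCF3-ZNF384. Both fusion groups lay above EV and ZNF384. The change with TCF3-ZNF384 was 0.57 ± 0.16 (edgeR adjusted p = 0.015), and it missed the threshold without either EV library or without the second TCF3-ZNF384 library (adjusted p up to 0.123). The gene's exons overlap those of Tmem63b, a membrane channel gene on the opposite strand, over 11.2% of their bases, and Tmem63b rose by 1.12 in the same comparison (edgeR adjusted p = 7.68e-05). The part of those shared bases in the Mrpl14 value was not tested.

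**Figure D4:**
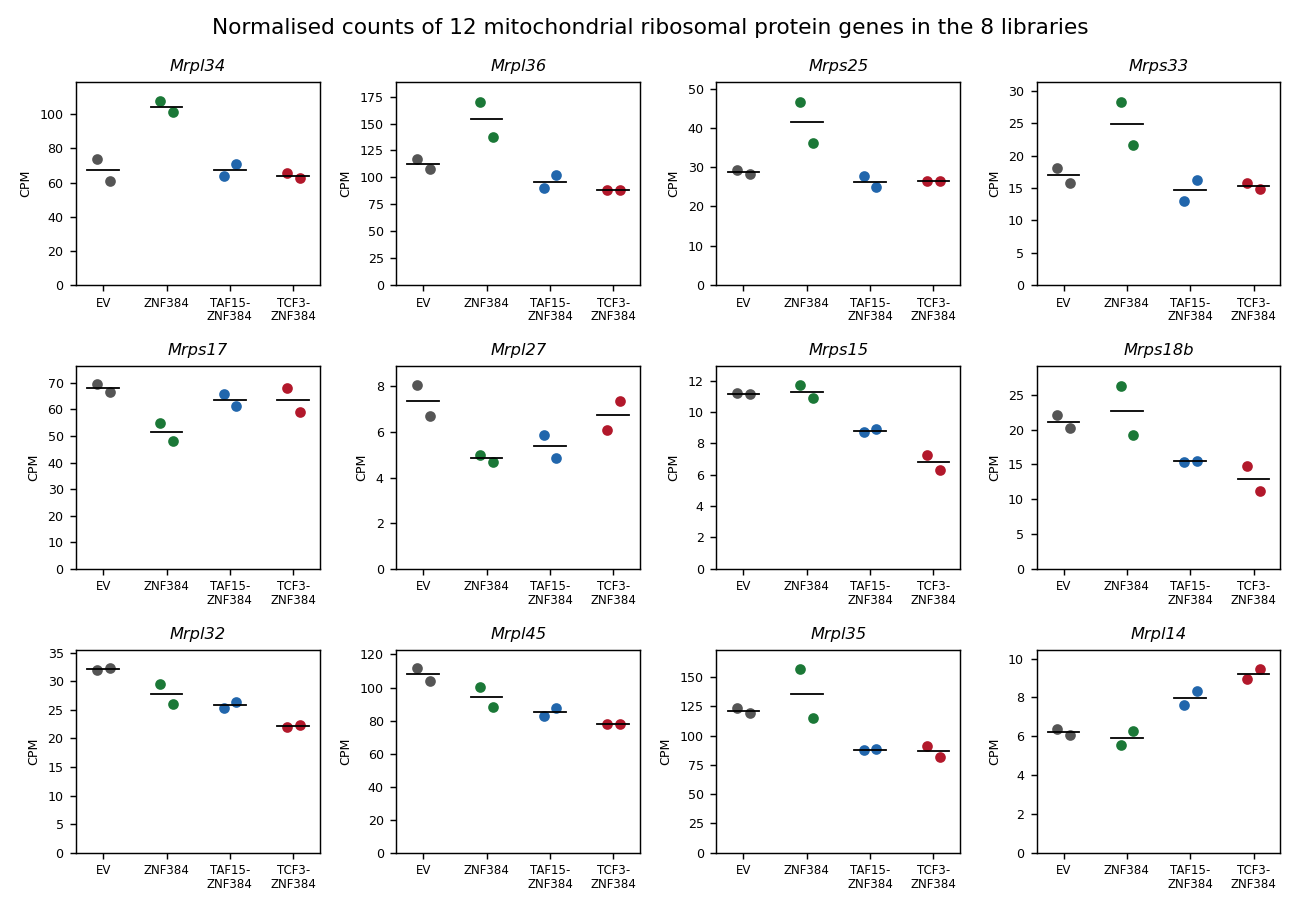
CPM of 12 mitochondrial ribosomal protein genes in the 8 libraries; points are libraries, coloured by group, black bars are group means (n = 2), and every vertical axis starts at 0. Mrpl34 is highest in the ZNF384 libraries (108 and 101 CPM), Mrps15 and Mrpl32 are lowest in the TCF3-ZNF384 libraries, and Mrpl14 is highest there (8.93 and 9.48 CPM).

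Full-length ZNF384 against EV moved few members. Of 76, 6 rose and 2 fell, where 10.8% of tested genes were called higher and 9.87% lower (20.6% in either direction), so the members' share was below the background in both directions. The median log2 fold change was 0.09, against 0.03 for all tested genes. Both ZNF384 libraries lay above both EV libraries for 25 members and below them for 11, against 32.2% and 26.2% of tested genes. Scaled by total counts, 47 members were called higher and 0 lower, with the members' median at 0.40 and that of all tested genes at 0.35. The ZNF384 libraries differed from each other, with a median deviation from the gene means of 0.23 in the first and 0.07 in the second. Without the first, the median turned to −0.01 and the calls to 2 higher and 5 lower, and without the second they were 0.17, with 19 higher and 2 lower. Without the first EV library 4 calls were made, and without the second 1.

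Mrpl34 (bL34, a large subunit protein with a bacterial relative; chr8:73988825-73989651) had the largest rise and kept its call whichever library was left out. It measured 73.7 and 61.1 CPM in EV and 108 and 101 CPM with ZNF384, and the fusion libraries, at 62.5 to 70.7 CPM, lay within the EV range. Its log2 fold change was 0.63 ± 0.11 (edgeR adjusted p = 0.00113). Mrps33, specific to mitochondria (chr6:39751803-39760987), measured 18 and 15.8 CPM in EV and 28.2 and 21.7 CPM with ZNF384 (0.57 ± 0.14, edgeR adjusted p = 0.0122). Mrpl36 (bL36; chr13:73468457-73469623) measured 117 and 107 CPM against 170.3 and 137 CPM (0.45 ± 0.11, edgeR adjusted p = 0.0123). In both genes the ZNF384 libraries lay above all 6 others. Mrps25 (chr6:92119519-92134027), specific to mitochondria, measured 29.2 and 28.2 CPM against 46.7 and 36.1 CPM (0.53 ± 0.12, edgeR adjusted p = 0.00704). Of its exon bases, 53.7% are shared with Nr2c2 on the opposite strand, and Nr2c2 itself had a log2 fold change of 0.06 (adjusted p = 0.675). Mrps25 and Mrps33 missed the threshold without the first ZNF384 library or the second EV library, and Mrpl36 without the second EV library. Mrpl13 (uL13; 0.34 ± 0.11) and Mrps5 (uS5; 0.33 ± 0.11) passed by little (edgeR adjusted p = 0.0447 and 0.0459) and kept the call in 1 of 8 leave-outs each.

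Mrps17 (uS17; chr5:130221372-130224750) and Mrpl27 (bL27, near the peptidyl transferase centre; chr11:94515081-94521403) were the members that fell with ZNF384. Mrps17 measured 69.6 and 66.7 CPM in EV and 55.0 and 48.1 CPM with ZNF384 (−0.40 ± 0.11, edgeR adjusted p = 0.0168), and the 4 fusion libraries, at 59.1 to 68.2 CPM, lay above both ZNF384 libraries. Mrpl27 measured 8.06 and 6.69 CPM in EV and 5 and 4.67 CPM with ZNF384 (−0.60 ± 0.18, edgeR adjusted p = 0.0276), on 46 to 218 counts per library. Neither gene passed without the first or without the second EV library, with adjusted p up to 0.116 for Mrps17 and 0.213 for Mrpl27.

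TAF15-ZNF384 against EV gave 3 members that fell and 0 that rose, where 6.01% of tested genes were called lower and 5.01% higher (11% in either direction). The median log2 fold change was −0.16, against 0.01 for all tested genes, and both TAF15-ZNF384 libraries lay below both EV libraries for 44 members, against 30.3% of tested genes, and above them for 10, against 29%. Scaled by total counts the median was −0.02, with all tested genes at 0.15, and 2 members were called higher and 0 lower. Mrpl35 (bL35) measured 123 and 119 CPM in EV and 87.7 and 88.4 CPM with TAF15-ZNF384 (−0.46 ± 0.13, edgeR adjusted p = 0.0375). Mrps30, whose product is a large subunit protein specific to mitochondria, measured 108 and 103 CPM against 76.2 and 78.6 CPM (−0.44 ± 0.11, edgeR adjusted p = 0.0233). Mrpl45, the membrane anchor described above, measured 112 and 104 CPM against 82.6 and 87.6 CPM (−0.34 ± 0.10, edgeR adjusted p = 0.0433). All 3 genes separated the groups in every library, but each call was lost without any 1 of the EV or TAF15-ZNF384 libraries, which left 0 calls in edgeR with 10 to 16 members at an unadjusted p under 0.05, and those of Mrpl35 and Mrpl45 also without either TCF3-ZNF384 library. Without either ZNF384 library 17 members were called, although neither is a library of the groups compared. They enter through the filter, the scaling and the estimate of the spread, and which of these moved the count was not tested.

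The fusions were next set against full-length ZNF384. These comparisons use the same ZNF384 libraries as each other and as the comparison with EV, so they are not independent. With TCF3-ZNF384, 37 members were lower and 3 higher than with ZNF384, where 23.4% of tested genes were lower and 22.2% higher (45.6% in either direction), and the median was −0.28, against 0.00 for all tested genes. With TAF15-ZNF384, 24 were lower and 0 higher, where 17.9% were lower and 15.4% higher (33.3% in either direction), and the median was −0.25, against −0.02. The TCF3-ZNF384 libraries lay below both ZNF384 libraries for 53 members (36.2% of tested genes) and the TAF15-ZNF384 libraries for 45 (34.5%). Among members past the threshold, the largest decreases with TCF3-ZNF384 were in Mrpl23 (−1.03 ± 0.14, uncertain as above), Mrps18b (−0.84 ± 0.16), Mrpl42 (−0.84 ± 0.21), a large subunit protein specific to mitochondria, and Mrpl36 (−0.80 ± 0.12). With TAF15-ZNF384, again among members past the threshold, they were in Mrps33 (−0.78 ± 0.16), Mrpl42 (−0.75 ± 0.22), Mrpl36 (−0.68 ± 0.12) and Mrps25 (−0.66 ± 0.13). The sparsely counted Mrps6 was at −0.71 ± 0.51 and did not pass (edgeR adjusted p = 0.299). Mrpl14 (0.65 ± 0.16), Mrpl27 (0.49 ± 0.19) and Mrps17 (0.30 ± 0.11) were the members higher with TCF3-ZNF384 than with ZNF384. Without the first ZNF384 library the TAF15-ZNF384 calls went from 24 to 13 and the median to −0.12, and without the first or the second TAF15-ZNF384 library they went to 8 and 12. Without the second TCF3-ZNF384 library the TCF3-ZNF384 calls went from 40 to 21, and without the first ZNF384 library the median went to −0.19. In 19 of the 37 members lower with TCF3-ZNF384, and in 6 of the 24 lower with TAF15-ZNF384, the call held whichever library was left out.

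Between the fusions, 1 member passed the threshold. Mrpl37, a large subunit protein specific to mitochondria (chr4:106728479-106739473), measured 50.2 and 51.3 CPM with TAF15-ZNF384 and 65.2 and 64.1 CPM with TCF3-ZNF384, against 60.6 and 61.9 CPM in EV and 65.7 and 58.5 CPM with ZNF384. The TAF15-ZNF384 libraries were the lowest, and the difference between the fusions was 0.35 ± 0.10 (edgeR adjusted p = 0.0447), where 5.91% of tested genes were higher and 4.17% lower (10.1% in either direction). The call was lost on leaving out either EV library, either TAF15-ZNF384 library or either TCF3-ZNF384 library, and without either ZNF384 library 8 members were called. DESeq2's Wald test and limma-voom each gave 0 calls among the 76 members tested, with 8 and 7 at an unadjusted p under 0.05 and 10 in edgeR. The median of the members between the fusions was −0.10, against 0.00 for all tested genes (0.07 and 0.17 when scaled by total counts), and both TCF3-ZNF384 libraries lay below both TAF15-ZNF384 libraries for 30 members (28.2% of tested genes) and above for 12 (29%).

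Members with a bacterial relative and members specific to mitochondria were counted apart. Mrps18a and Mrps18b were counted as specific to mitochondria, although both are relatives of bacterial S18, so the split is not strictly one of descent. With TCF3-ZNF384 against EV, 12 of 46 members with a bacterial relative fell (median −0.15) and 11 of 29 mitochondrion-specific members fell (median −0.30), where 17% of all tested genes were lower. Against ZNF384 the numbers were 19 of 46 (median −0.26) and 18 of 29 (median −0.39) with TCF3-ZNF384, and 11 of 46 (median −0.17) and 13 of 29 (median −0.30) with TAF15-ZNF384, where 23.4% and 17.9% of all tested genes were lower. Within the small subunit, 8 of 10 members counted as mitochondrion-specific were lower with TCF3-ZNF384 than with ZNF384 (median −0.51). Mrps18b was among them and had the lowest value (−0.84). Of the 16 counted as having a bacterial relative, 4 were lower (median −0.13). The large subunit did not show this split in the same comparison. There 10 of 19 mitochondrion-specific members (median −0.28) and 15 of 30 with a bacterial relative (median −0.31) were lower. The difference between these classes was not tested.

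The 3 relatives of bacterial S18 occupy different places in the mitoribosome, Mrps18c at the bacterial position. Differences among the 3 genes were not tested. Mrps18b fell with TCF3-ZNF384 as given above. Mrps18a measured 46.9 and 46.1 CPM in EV and 34.1 and 40.7 CPM with TCF3-ZNF384 (−0.31 ± 0.11, edgeR adjusted p = 0.041), a call lost without any 1 of the EV or TAF15-ZNF384 libraries or the first TCF3-ZNF384 library (adjusted p up to 0.346). Mrps18c measured 7.70 and 8.23 CPM in EV and 6.17 and 6.57 CPM with TCF3-ZNF384 and passed in no comparison (−0.32 ± 0.18 against EV, edgeR adjusted p = 0.188). Its TAF15-ZNF384 libraries, at 6.09 and 5.18 CPM, and its ZNF384 libraries, at 6.86 and 5.59 CPM, were also all below EV.

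The stalk proteins, which recruit translation factors to the large subunit, gave different values. Mrpl12 (bL12) measured 16.7 and 16.8 CPM in EV, 21.6 and 19.0 CPM with ZNF384, 16.4 and 15.5 CPM with TAF15-ZNF384 and 9.76 and 14 CPM with TCF3-ZNF384. It fell with TCF3-ZNF384 against EV (−0.47 ± 0.15, edgeR adjusted p = 0.0303) and against ZNF384 (−0.75 ± 0.15, edgeR adjusted p = 0.00116). The first of these calls was lost without either EV library or without the first TCF3-ZNF384 library (adjusted p up to 0.292). Mrpl10 (uL10), which holds Mrpl12 on the ribosome, measured 13.1 and 11.3 CPM in EV and 13.2 and 12.4 CPM with TCF3-ZNF384 (0.06 ± 0.14, edgeR adjusted p = 0.783). Mrpl11 (uL11) measured 7.86 and 8.87 CPM in EV and 6.35 and 6.25 CPM with TCF3-ZNF384 and did not pass against EV (−0.41 ± 0.19, edgeR adjusted p = 0.117), but was lower than with ZNF384 (−0.58 ± 0.19, edgeR adjusted p = 0.021).

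In all, 45 members were called in 1 or more of the 6 comparisons and 31 in none. The same count was not made over all tested genes, of which 45.6% were called in TCF3-ZNF384 versus ZNF384 alone. Among the 31 were Mrpl9, one of the most abundant members, the low members Mrps6, Mrps34 and Mrpl48, and Mrps36. Mrpl55, at 2.94 to 6.66 CPM, had the highest value with TAF15-ZNF384 against EV (0.72 ± 0.25) and missed the threshold (edgeR adjusted p = 0.0767). Members that fell with TCF3-ZNF384 against EV had a median of 35.7 CPM, and those not called 23.5 CPM. Over the 76 members, Spearman's rho between the mean CPM and the log2 fold change was −0.28 in that comparison, as a description only, since all points come from the same libraries. The members' transcripts were short, with a median of 1216 bases, against 2963 for tested genes, and had a median GC content of 50.4%, against 49.9%. With a trend on length and GC removed, the medians against ZNF384 moved from −0.28 to −0.21 with TCF3-ZNF384 and from −0.25 to −0.18 with TAF15-ZNF384. The 51 members whose exons overlap no other gene gave 15 lower and 0 higher with TCF3-ZNF384 against EV (median −0.23), and the 25 tested members with an overlap gave 8 lower and 1 higher (median −0.25). Of all tested genes, 17% were called lower and 16.2% higher in that comparison (median 0.01).

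A head-to-head neighbour, with a start on the opposite strand within 1000 bases, was annotated for 29 of the 77 genes (37.7%), against 17.3% of tested protein-coding genes. Neighbours were looked up among the tested genes by their mm9 annotation name. A neighbour tested under another symbol was therefore left out, as was Rab6a, annotated as Rab6, beside Mrpl48. Of the pairs matched in this way, 6 had a member that fell with TCF3-ZNF384 against EV. The neighbour fell in 1 of them (Mrps27 at −0.46 and Ptcd2 at −0.69), rose in 1 (Mrpl44 at −0.39 and Wdfy1 at 0.50) and was not called in the other 4. Mrps18b fell by 0.73 while its neighbour Ppp1r10 was at 0.16 (adjusted p = 0.24), and Mrpl32 fell by 0.53 while Psma2, a proteasome subunit gene, was at 0.12 (adjusted p = 0.494). Mrpl47 fell by 0.65, and Ndufb5, which encodes a subunit of respiratory complex I, was at 0.10 (adjusted p = 0.537). These partner values come from the same edgeR fit.

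Other genes of mitochondrial translation were counted from lists of their roles. Of 7 genes listed as mitoribosomal proteins with other symbols, 2 fell with TCF3-ZNF384 against EV and 4 were lower than with ZNF384. Of all tested genes, 17% and 23.4% were lower. The list includes Oxa1l, which encodes an inner membrane insertase and not a ribosomal protein. Gadd45gip1, a large subunit protein at the exit tunnel, fell by 0.45 ± 0.10 with TCF3-ZNF384 (edgeR adjusted p = 0.00272) and by 0.41 ± 0.10 with TAF15-ZNF384 (edgeR adjusted p = 0.0172) against EV. Ptcd3, a small subunit protein, fell by 0.36 ± 0.11 with TCF3-ZNF384 (edgeR adjusted p = 0.0198). Of 10 tested translation factors, 6 were lower with TCF3-ZNF384 and 5 with TAF15-ZNF384 than with ZNF384, where 23.4% and 17.9% of all tested genes were lower, with medians of −0.50 and −0.48. Against EV, 2 (20%) fell with TCF3-ZNF384, near the 17% of all tested genes called lower. They were the elongation factor gene Tsfm (−0.56 ± 0.15, edgeR adjusted p = 0.0114) and the recycling factor gene Mrrf (−0.33 ± 0.11, edgeR adjusted p = 0.0283). With ZNF384 against EV 2 (20%) rose, where 10.8% of all tested genes were called higher. They were the GTPase gene Guf1 (0.66 ± 0.11) and the initiation factor gene Mtif2 (0.37 ± 0.12).

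Of 21 genes that charge mitochondrial tRNAs or modify the charged tRNA, 5 (23.8%) fell and 1 (4.76%) rose with TCF3-ZNF384 against EV. Of all tested genes, 17% were lower and 16.2% higher in that comparison, and the median of the 21 was −0.06. The methionyl-tRNA synthetase gene Mars2 fell by 0.95 ± 0.12 (edgeR adjusted p = 5.67e-05), more than any tested member, and was also lower than with TAF15-ZNF384 (−0.72 ± 0.13, edgeR adjusted p = 0.00221). Qrsl1, which encodes a subunit of the amidotransferase that completes glutaminyl-tRNA, fell by 0.95 ± 0.14 (edgeR adjusted p = 0.000136), and the phenylalanyl-tRNA synthetase gene Fars2 rose by 0.58 ± 0.19 (edgeR adjusted p = 0.0308). Of 25 assembly factors, 3 (12%) fell and 2 (8%) rose with TCF3-ZNF384 against EV (median −0.09), below the shares of all tested genes. The ribosomal RNA methyltransferase gene Mrm1 fell by 0.85 ± 0.11 and the GTPase gene Noa1 by 0.65 ± 0.13, while the pseudouridine synthase gene Trub2 rose by 0.41 ± 0.10 and the helicase gene Dhx30 by 0.32 ± 0.10. Of 16 genes of mitochondrial DNA expression and RNA stability, 3 (18.8%) fell and 1 (6.25%) rose (median −0.08), a share of lower genes near that of all tested genes. They were the helicase gene Peo1 (−0.60 ± 0.11), whose exons overlap those of Mrpl43, the transcription elongation factor gene Tefm (−0.65 ± 0.13), the RNA stability gene Lrpprc (−0.61 ± 0.13) and the polymerase gene Polg (0.30 ± 0.11). Afg3l2, a subunit of the protease that matures the product of Mrpl32, was lower with both fusions than with ZNF384 (−0.69 ± 0.13 with TCF3-ZNF384 and −0.68 ± 0.13 with TAF15-ZNF384).

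**Figure D5:**
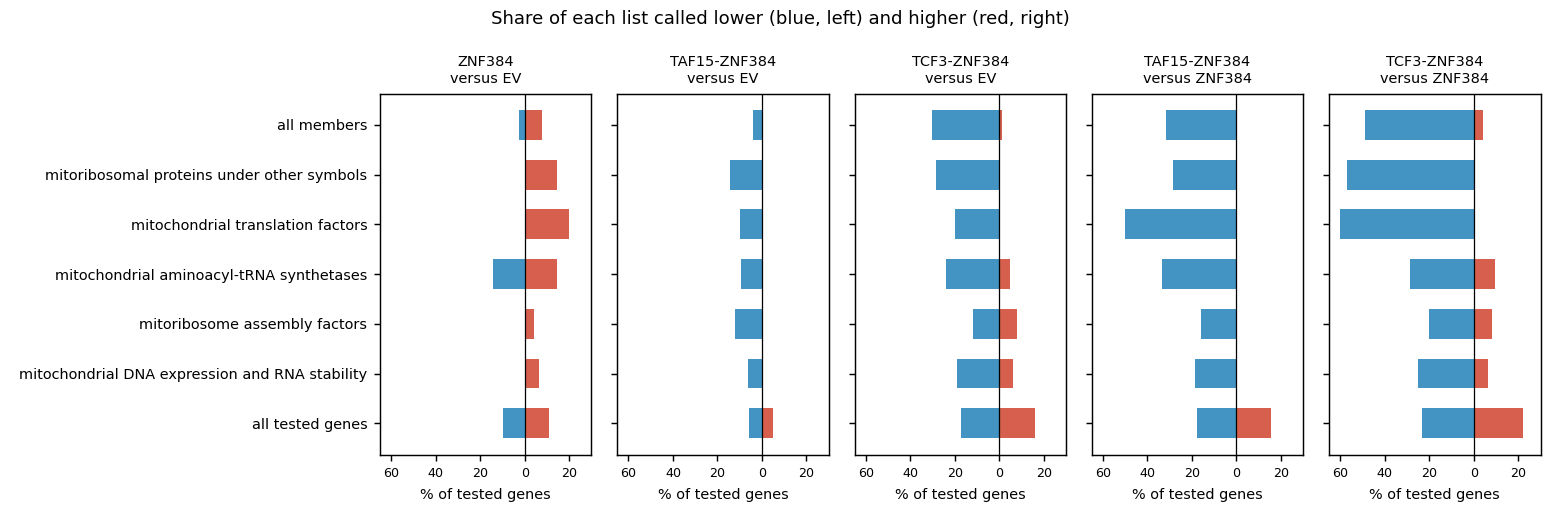
Share of tested genes called lower (blue, to the left) and higher (red, to the right) in 5 comparisons, in percent, for the mitochondrial ribosomal protein genes (all members), 5 lists of other genes of mitochondrial translation and all tested genes. In TCF3-ZNF384 versus ZNF384 the blue bars reach 48.7% for the members and 60% for the 10 translation factors, against 23.4% for all tested genes.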

How the data were processed

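RNA-seq libraries from 8 cultures were analysed from the raw counts per gene that the authors deposited. Per the submitters' processing notes these counts were made with HTSeq 0.6.1p1 on mm9; the aligner and the strand setting are not given in the sources used here, and per the labels the kit was a stranded total RNA kit. No column was left out, and every count was a whole number. In R 4.3.3, edgeR 4.0.16 (filterByExpr, TMM scaling, robust quasi-likelihood fit with 1 term per group and 4 residual degrees of freedom, biological coefficient of variation 0.0958) compared the 4 groups in 6 two-sided tests, with p adjusted by Benjamini-Hochberg over all 12970 tested genes and a threshold of 0.05. CPM values use TMM-scaled library sizes. Alternatives used limma 3.58.1 (voom), DESeq2 1.42.0, other scalings and filters, and each library left out. The fit was tested on simulated data. Coordinates and exon overlaps come from the GENCODE annotation of mm9 and promoters from RefSeq on GRCm38.p6, where 9 members had no entry. The letters searched for NRF1 and YY1 were shortened after longer forms had been counted. Depth is the total counts per library, and genes with few counts have wide errors. Members chosen for naming were, per comparison, those past the threshold with the smallest adjusted p (up to 8 per direction against EV and up to 4 otherwise), the 3 highest and 3 lowest log2 fold changes, the 3 highest and 3 lowest levels per length, those called in 2 or more comparisons with EV, the relatives of S18 and the stalk proteins, and up to 2 genes per direction of each list. Others (Mrpl47, Mrpl44, Mrps27, Mrps36 and the neighbours of members) were chosen after their values were seen. Not every member chosen by these rules is described above. Among those left out are the members with the lowest and highest change between the fusions (−0.50 and 0.86). The member with the lowest change with TAF15-ZNF384 against EV (−0.71) is also left out of that comparison. The members and the lists were chosen with earlier results of these data known.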

Additional observations from a re-analysis of the deposited data

How the results depend on the processing

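The direction of the median log2 fold change of the members held in 4 of 6 comparisons under scaling by total counts, and reversed to 0.0704 in TCF3-ZNF384 versus EV and to 0.0681 in TCF3-ZNF384 versus TAF15-ZNF384; it was 0.40 in ZNF384 versus EV, −0.0211 in TAF15-ZNF384 versus EV and −0.42 in TAF15-ZNF384 versus ZNF384. Calls under that scaling were 47, 9, 41 and 3 for ZNF384 versus EV, TCF3-ZNF384 versus EV, TAF15-ZNF384 versus ZNF384 and TCF3-ZNF384 versus TAF15-ZNF384. ZNF384 versus EV, with 8 calls, gave 5 with the DESeq2 Wald test, 5 from its own 2 groups only and 3 after thinning to 9381954 counts. TAF15-ZNF384 versus EV, with 3 calls, gave 1 with limma-voom, 10 with no filter, 16 from its own groups only and 5 after thinning. TCF3-ZNF384 versus TAF15-ZNF384, with 1 call, gave 3 with DESeq2 size factors, 0 with the DESeq2 Wald test, 0 with limma-voom, 4 with at least 2 CPM, 8 from its own groups only, 3 without the 5 non-coding genes and 2 after thinning. With a trend on length and GC removed, the medians against ZNF384 were −0.18 (TAF15-ZNF384) and −0.21 (TCF3-ZNF384). The cause of these differences was not tested, other than that fewer samples or counts enter some of them.

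Leaving out 1 library at a time, calls ran from 1 to 21 and the median from −0.00921 to 0.17 in ZNF384 versus EV, from 0 to 17 and −0.20 to −0.13 in TAF15-ZNF384 versus EV, from 6 to 33 and −0.25 to −0.20 in TCF3-ZNF384 versus EV, from 8 to 32 and −0.30 to −0.12 in TAF15-ZNF384 versus ZNF384, from 21 to 42 and −0.38 to −0.19 in TCF3-ZNF384 versus ZNF384, and from 0 to 8 and −0.12 to −0.0309 in TCF3-ZNF384 versus TAF15-ZNF384. Where a group was left with 1 library, that library was assumed to vary like the other groups.

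The check for a pairing by replicate number gave correlations of within-group deviations of 0.0136 to 0.225 between groups, not above 0.1 for every pair of groups, so the numbers were not taken as a pairing. The count columns of ZNF384, TAF15-ZNF384 and TCF3-ZNF384 end in Rep2b or Rep3b, and those of EV have no such ending. What these endings stand for is not given in the sources used here. Whether the EV libraries were made apart from the others cannot be told. With a replicate block the calls were 8, 7, 28, 27, 40 and 1 in the order of the comparisons with EV (ZNF384, TAF15-ZNF384, TCF3-ZNF384), the comparisons with ZNF384 (TAF15-ZNF384, TCF3-ZNF384) and the fusions, so only TAF15-ZNF384 versus EV moved by over 1.5 times, from 3.

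Among single named genes, 2126 values kept direction and side of the threshold, 298 were no longer past it, 32 came past it and 11 reversed, none of them called. The reversed values in ZNF384 versus EV were 0.14 for Mrpl10 and 0.11 for Mrpl45 (total counts), −0.011 for Mrpl11, −0.0911 for Mrpl35 and −0.15 for Mrps18b (without ZNF384 replicate 1, while leave-outs ran up to 0.29, 0.35 and 0.29) and −0.0916 for Mrps18b (thinned). In TAF15-ZNF384 versus EV they were 0.0016 for Mrpl11 and 0.0716 for Mrpl12 (total counts) and 0.094 for Mrpl11 (without TAF15-ZNF384 replicate 1, with leave-outs down to −0.44), and in TCF3-ZNF384 versus EV they were −0.0492 (without EV replicate 2, with leave-outs up to 0.16) and −0.0055 (thinned) for Mrpl10. The depth of 9381954 to 41483660 counts and 2 libraries per group limit which small changes pass.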
